A study of Mus musculus with 6 samples.

Results

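The 10 genes described here encode enzymes that break down the branched-chain amino acids leucine, isoleucine and valine: Bcat2, Bckdha, Bckdhb, Dbt, Ivd, Mccc1, Mccc2, Auh, Hibch and Hibadh. They were chosen by symbol from the 13490 genes in the deposited expression table, and all 10 had a row. The RNA came from inguinal white adipose tissue, a subcutaneous fat depot, and was sequenced for 6 mice, all male, 15 weeks old, wild type and of the C57BL/6J strain. For 9 weeks, 3 mice drank distilled water and 3 drank water with 300 ppb sodium arsenite, an inorganic salt of trivalent arsenic. The series title refers to impaired adaptive thermogenesis; the comparison made here is between the arsenite and water groups. The deposited values were group means, a log2 ratio of arsenite over water, and a posterior probability that a gene was equally expressed in both groups (PPEE), so no SD, no value per mouse and no test across mice can be given here. Genes with a PPEE of 0.05 or less were called changed.

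Branched-chain amino acids are broken down inside mitochondria. An aminotransferase first turns them into 2-oxo acids, and the branched-chain 2-oxoacid dehydrogenase complex then removes carbon dioxide irreversibly and attaches coenzyme A. From there leucine passes through isovaleryl-CoA and methylcrotonyl-CoA to acetoacetate and acetyl-CoA, valine through 3-hydroxyisobutyrate towards propionyl-CoA, and isoleucine to acetyl-CoA and propionyl-CoA. Mature fat cells express this pathway strongly, and brown fat takes up these amino acids as fuel during cold.

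The genes themselves are scattered over the genome (RefSeq annotation, GRCm38.p6; gene spans with introns). Bcat2 lies on chromosome 7 at 45568967 to 45589710 and Bckdha on the same chromosome at 25629852 to 25658782. Chromosome 3 carries Dbt at 116513070 to 116549981 and Mccc1 at 35956292 to 36000694, and chromosome 13 carries Mccc2 at 99948532 to 100015639 and Auh at 52835107 to 52929704. Ivd lies on chromosome 2 at 118861959 to 118882909, Bckdhb on chromosome 9 at 83925111 to 84124240, Hibch on chromosome 1 at 52845038 to 52920986 and Hibadh on chromosome 6 at 52546230 to 52640300. The promoter windows of the pair with the highest ratios, Ivd and Bcat2, and of the gene with the lowest ratio, Hibch, are shown because these genes stand at the ends of the range of ratios. Each runs 5′ to 3′ from 250 bases before to 50 bases after a RefSeq start, on the plus strand at chr2:118861744-118862043 for Ivd, chr7:45569903-45570202 for the first of 2 listed starts of Bcat2, and chr1:52844788-52845087 for Hibch. Capitals mark matches, on either strand, to CACCC (core letters bound by Krüppel-like factors such as Klf15) and to CCAAT (the letters bound by NF-Y).
Ivd: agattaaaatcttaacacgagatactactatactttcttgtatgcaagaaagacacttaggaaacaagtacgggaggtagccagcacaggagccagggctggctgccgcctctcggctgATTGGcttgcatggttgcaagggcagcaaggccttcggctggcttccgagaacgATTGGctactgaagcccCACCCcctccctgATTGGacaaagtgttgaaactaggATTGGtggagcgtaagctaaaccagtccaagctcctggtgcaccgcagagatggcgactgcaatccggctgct
Bcat2: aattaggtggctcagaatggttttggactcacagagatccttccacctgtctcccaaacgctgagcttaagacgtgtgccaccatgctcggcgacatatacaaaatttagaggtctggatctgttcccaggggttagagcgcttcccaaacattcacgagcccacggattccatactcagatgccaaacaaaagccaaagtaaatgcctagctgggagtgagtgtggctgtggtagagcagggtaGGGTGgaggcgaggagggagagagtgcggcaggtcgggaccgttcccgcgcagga
Hibch: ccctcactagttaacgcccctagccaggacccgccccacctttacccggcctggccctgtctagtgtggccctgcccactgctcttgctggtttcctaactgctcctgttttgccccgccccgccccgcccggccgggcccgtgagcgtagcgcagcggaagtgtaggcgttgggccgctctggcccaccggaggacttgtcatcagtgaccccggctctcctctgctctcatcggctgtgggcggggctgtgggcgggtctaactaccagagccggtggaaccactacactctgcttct

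The Ivd window held 1 CACCC match and 4 CCAAT matches. The Bcat2 window shown held 1 CACCC match and 0 CCAAT matches, and the Hibch window 0 of either. The window at the second Bcat2 start held 0 of either. Among the other genes with a window and a deposited ratio below 0, Mccc1 had 2 CACCC matches, Hibadh 1 and Bckdha 0. The Bckdhb windows held 2 and 0. Of the other genes with ratios above 0, Mccc2 had 1 CACCC match and Auh 0. No match to one overlapped a match to the other in these windows. Over the 11 windows of the 9 genes with an entry, CACCC occurred in 6 and CCAAT in 6, against 57.5% and 37.4% of all 32851 promoter windows of the same length. Of all those windows, 1.06% held at least 4 CCAAT matches, a bound that equals the count in the Ivd window itself. Mccc1, with a deposited ratio below 0, and Mccc2, with one above 0, each held 3 CCAAT matches. For CCAAT the Bckdhb windows held 2 and 1, the Hibadh window 1, and those of Bckdha and Auh 0. The letters AAGGTCA, a short site read by estrogen-related receptors and other nuclear receptors, occurred in 0 of the 11 windows on either strand and in 4.72% of all windows. The choice of CACCC and CCAAT was made after the values were seen. A match is a description of the sequence and not a bound site.

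As deposited, the group means of the branched-chain catabolic genes differed between arsenite and water by 1.88% for Auh to 23.3% for Ivd. None of the 10 was called, against 0.734% of all 13490 genes called in either direction, 0.385% higher and 0.348% lower. At so low a share, 0 of 10 says little about these genes. By the authors' deposited table, there were 6 of them with a log2 ratio below 0 and 4 above, beside 54.5% of all genes below 0. Their median log2 ratio, computed from the authors' deposited table, was -0.054, and that of all genes was -0.034. The summed group mean of the 10 genes was 13530 under water and 13181 under arsenite, 2.58% lower, while the sum over all genes was 10.4% lower. Their PPEE values in the authors' deposited table lay between 0.993 and 1, and 69.3% of all genes had a PPEE at least as high as the lowest of them. A PPEE near 1 did not mark a small difference between the group means. The 7 brown and beige adipocyte markers read below had log2 ratios from -2.10 to -0.999, and their lowest PPEE was 0.977. A gene that was not called is therefore not shown to be equally expressed. All 10 were among the more abundant genes, since 3.81% of genes had a higher mean over both groups than Hibadh and 18.3% a higher one than Auh, the lowest of the set.

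**Figure D1:**
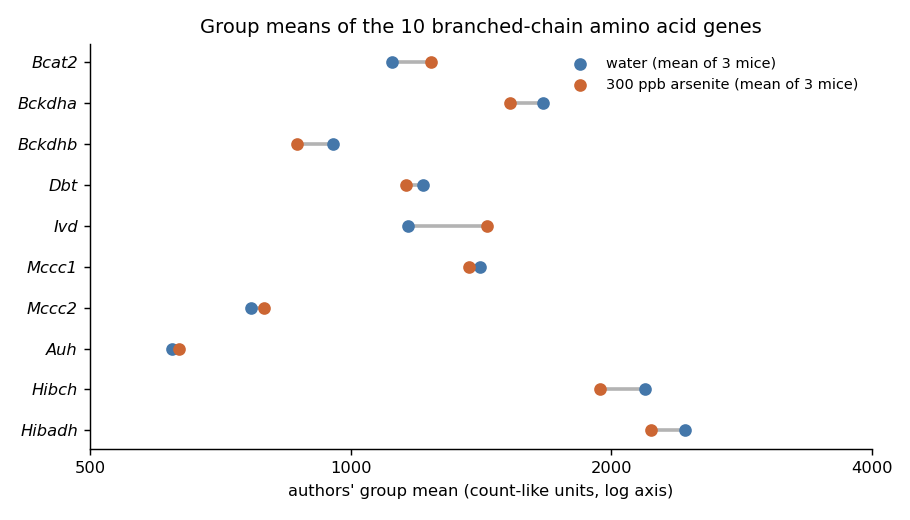
Authors' group means (horizontal log axis, count-like units) of the 10 branched-chain amino acid genes, with 1 point for water and 1 for 300 ppb arsenite, each the mean of 3 mice; the grey line joins both means of a gene. The widest gap is that of Ivd, 1165 against 1436, and the means of Auh, 620 and 632, nearly coincide.

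Bcat2 encodes the mitochondrial branched-chain aminotransferase, which starts the pathway in most tissues outside the liver. The authors' mean was 1115 with water and 1237 with arsenite, 10.9% higher, and it was not called. Bcat1, the cytosolic aminotransferase, had means of 74.9 and 67.9. Per kilobase of gene length, the Bcat2 level was 65.6 times that of Bcat1 under water and 80.2 times under arsenite, so the mitochondrial form was the abundant one in both groups. Of the exonic bases of Bcat2, 15.9% overlap the opposite-strand gene 0610005C13Rik, and whether reads were counted by strand is not given in the sources used here.

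The branched-chain 2-oxoacid dehydrogenase complex is the committed step, and its 3 own subunits all had slightly lower means under arsenite as deposited, but slightly higher ones when the arsenite means were scaled to the same sum as the water means (equal sums). Bckdha, the alpha subunit of the E1 decarboxylase, had authors' means of 1668 with water and 1528 with arsenite, 8.38% lower. Bckdhb, the beta subunit of E1, had 952 and 866, 9.06% lower. Dbt, the lipoate-bearing E2 core on which the complex is built, had 1210 and 1157, 4.40% lower. None was called. The balance between the E1 subunits was close in both groups: per kilobase, Bckdha stood at 1.40 times Bckdhb under water and 1.41 times under arsenite. Bckdha stood at 2.56 times Dbt per kilobase under water and 2.45 times under arsenite. For Bckdha, 61.7% of the exonic bases overlap B3gnt8 on the opposite strand, a gene whose own authors' means were 12.7 and 17.4.

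The kinase and phosphatase that switch this complex off and on were not called either. Bckdk, the kinase that phosphorylates and inhibits E1, had authors' means of 869 and 789; the authors' deposited table gives it a log2 ratio of -0.14, which is 0.018 with equal sums. Ppm1k, the phosphatase that reactivates E1, had 168 and 187, and the authors' deposited table lists its log2 ratio as 0.16, which is 0.31 with equal sums. Per kilobase, Bckdk stood at 10.1 times Ppm1k under water and 8.21 times under arsenite.

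The third catalytic component, the E3 dihydrolipoamide dehydrogenase Dld, is shared with the pyruvate and 2-oxoglutarate dehydrogenase complexes, and its ratio lay nearer to theirs than to that of the branched-chain subunits. The authors' mean of Dld was 6207 with water and 3925 with arsenite. By the authors' deposited table its log2 ratio is -0.66 and its PPEE 0.991, so it was not called. The pyruvate dehydrogenase subunits Dlat and Pdhx, its E2 and the E3-binding protein, both stand at a log2 ratio of -0.58 by the authors' deposited table. Ogdh and Dlst, E1 and E2 of the 2-oxoglutarate complex, stand at -0.39 and -0.42 by the authors' deposited table, and none of these was called. Per kilobase, Dld stood at 7.48 times Dbt under water and 4.95 times under arsenite. The difference between Dld and the branched-chain subunits could not be tested from group means.

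**Figure D2:**
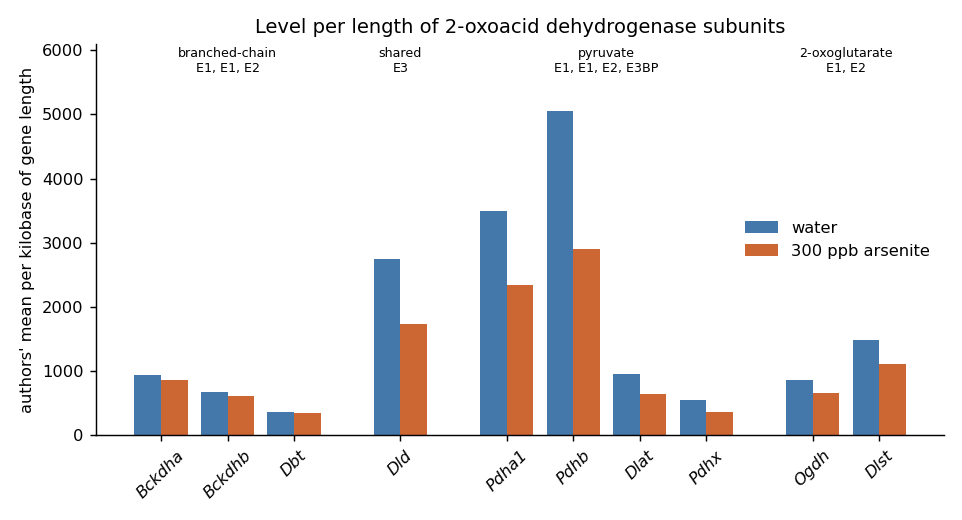
Authors' group mean per kilobase of deposited gene length (vertical axis from 0) for subunits of the branched-chain, pyruvate and 2-oxoglutarate dehydrogenase complexes and their shared E3, Dld, under water (blue bars) and 300 ppb arsenite (orange bars); no error can be given. The bars of Bckdha are 941 and 862, those of Dld 2749 and 1738, and those of Pdhb 5049 and 2908.

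On the leucine branch, Ivd had the largest ratio of the 10. Ivd encodes isovaleryl-CoA dehydrogenase, the flavoenzyme that follows the dehydrogenase complex in leucine breakdown. The authors' mean of Ivd was 1165 with water and 1436 with arsenite, 23.3% higher, and it was not called. For Ivd the authors' deposited table lists a log2 ratio of 0.30, with PPEE at 0.993. A ratio of this size is common, since 65.8% of all genes had an absolute log2 ratio at or below that of Ivd. Mccc1 and Mccc2, the biotin-bearing alpha and the beta subunit of methylcrotonyl-CoA carboxylase, had means of 1411 and 1370 and of 766 and 793. Those amount to 2.90% lower and 3.46% higher, so the subunits of this enzyme lay on opposite sides of 0 by small amounts, and Mccc1 lay above 0 under upper-quartile scaling, quantile normalization and equal sums. Auh, the methylglutaconyl-CoA hydratase that also binds AU-rich RNA, had 620 and 632, 1.88% higher.

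On the valine branch Hibch and Hibadh had lower means under arsenite, Hibadh not under every scaling. Hibch, the hydrolase that frees 3-hydroxyisobutyrate from coenzyme A, had authors' means of 2186 with water and 1942 with arsenite, 11.2% lower and the lowest ratio of the 10. Hibadh, the dehydrogenase that oxidises 3-hydroxyisobutyrate, had 2436 and 2221, 8.85% lower, with a ratio above 0 under quantile normalization and equal sums. Neither was called. Hibch and Hibadh were also the most abundant of the 10 per kilobase, at 1271 and 1394 under water, and Hibch stood at 0.912 times Hibadh there and 0.889 times under arsenite.

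The next valine enzyme had a ratio above 0. Aldh6a1, methylmalonate semialdehyde dehydrogenase, is the last enzyme before propionyl-CoA in valine breakdown and was the wider pathway gene of lowest PPEE. The authors' mean of Aldh6a1 was 4052 with water and 4735 with arsenite. The authors' deposited table gives it a log2 ratio of 0.22, with PPEE at 0.0665, just outside the bound used here but within one of 0.1. Of its exonic bases, 18.6% overlap Bbof1 on the opposite strand. Acad8 and Acadsb, the acyl-CoA dehydrogenases of the valine and isoleucine branches, had means of 365 and 357 and of 2193 and 2192. Acat1, the thiolase that ends the isoleucine branch and also acts in ketone metabolism, had 4415 and 3178, which the authors' deposited table lists as a log2 ratio of -0.47. Of the 6 genes examined in these middle steps, 0 were called, and 5 lay below 0 in the authors' deposited table against 3 with upper-quartile scaling, 2 with equal sums and 1 under quantile normalization. Their median was -0.046 as deposited and 0.11 with equal sums.

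Propionyl-CoA, which valine and isoleucine leave behind, is carried into the tricarboxylic acid cycle by carboxylation and a cobalamin-dependent mutase, and all 8 measured genes of this arm had log2 ratios below 0 in the authors' deposited table. Their median was -0.28 and 0 were called. Of all genes 54.5% lay below 0. Of the 445 genes annotated to the mitochondrion 77.8% did, and their median was -0.32. Under quantile normalization 7 of the 8 genes of the arm remained below 0, where Pccb lay above, and 8 did under the other settings. Pcca and Pccb, the subunits of propionyl-CoA carboxylase, had authors' means of 1101 and 918 and of 2375 and 2120, and the authors' deposited table lists their PPEE as 0.283 and 0.994. Mut, methylmalonyl-CoA mutase, had 1628 and 1359. Mcee, the epimerase ahead of it, had the lowest ratio of the arm, with means of 589 and 395. The cobalamin-handling genes Mmaa, Mmab, Mmadhc and Mmachc stand at log2 ratios of -0.37, -0.30, -0.39 and -0.22 by the authors' deposited table.

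**Figure D3:**
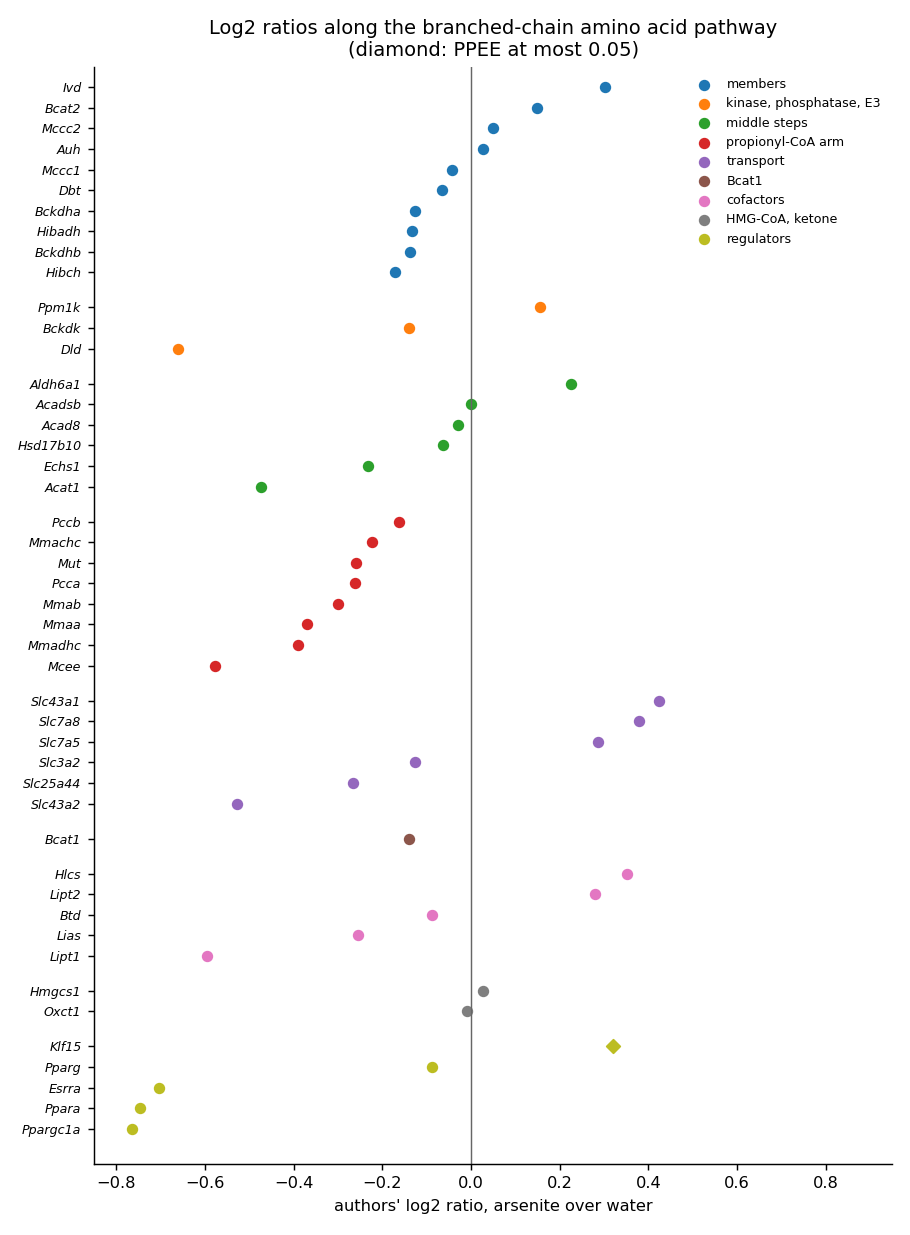
Authors' log2 ratio of arsenite over water (horizontal axis) for the 10 genes and for the other genes of the pathway, its cofactors, transporters and regulators, ordered within each group; circles are genes not called and the diamond is a gene called at a PPEE of at most 0.05. The 10 genes span -0.17 to 0.30, the 8 genes of the propionyl-CoA arm all lie below 0, and the diamond is Klf15 at 0.32.

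Transport and cofactor genes were split. Slc25a44, the mitochondrial carrier for branched-chain amino acids described in brown fat, had authors' means of 1011 and 840, which the authors' deposited table lists as a log2 ratio of -0.27. The plasma membrane carriers Slc43a1 and Slc43a2 had means of 126 and 170 and of 368 and 255, on opposite sides of 0. Slc3a2, the heavy chain shared by several amino acid carriers, had 1820 and 1666, while its partner Slc7a5 was low in both groups at 15.0 and 18.5. Over the 6 transport genes 3 lay below 0 as deposited and 0 were called. Under quantile normalization and equal sums 2 lay below 0, and Slc3a2 lay above. Among 5 cofactor genes 3 lay below 0 as deposited, 2 did with equal sums, and 0 were called. Hlcs, which attaches biotin to carboxylases, had means of 106 and 135, and Lipt1, which transfers lipoate to E2 subunits, 176 and 116. These lists were also counted together with Bcat1, the kinase, the phosphatase, Dld, the middle steps and the propionyl-CoA arm. Of these 29 wider pathway genes 0 were called. The number with ratios below 0 was 22 as deposited, 15 with equal sums and 16 under quantile normalization. Of all genes, 54.5% lay below 0 as deposited, 33.8% with equal sums and 50.1% under quantile normalization.

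Of 5 regulators 1 was called, against 0.734% of all 13490 genes. The list was chosen with earlier results of these data known, so its count is no measure of regulators in general. Klf15, a transcription factor that activates amino acid breakdown genes including Bcat2, rose from an authors' mean of 415 to 518, and the authors' deposited table gives it a log2 ratio of 0.32, with PPEE at 0.00696. Esrra, Ppargc1a and Ppara, an orphan nuclear receptor, its coactivator and a fatty acid receptor that drive mitochondrial genes, stand at log2 ratios of -0.70, -0.76 and -0.75 by the authors' deposited table and were not called. Pparg, which drives fat cell differentiation, had means of 2332 and 2194, with a ratio above 0 under quantile normalization and equal sums.

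All 10 genes carry a mitochondrial annotation in the deposited table, so they were set beside other mitochondrial genes. The 445 genes annotated to the mitochondrion, which include the 10, had a median log2 ratio of -0.32 by the authors' deposited table, and 77.8% of them lay below 0. All 16 genes of the tricarboxylic acid cycle lay below 0, with a median of -0.53, and so did all 15 genes of fatty acid oxidation, with a median of -0.44, both by the authors' deposited table; the exceptions under other scalings were Suclg2 under 3 of them and Echs1 under quantile normalization. Each of the 10 branched-chain genes had a ratio above the mitochondrial median and above every one of the 15 fatty acid oxidation genes, and 5 had a ratio above the highest tricarboxylic acid cycle gene, Suclg2. Under quantile normalization 7 of the 10 lay above every fatty acid oxidation gene. Once the length trend was removed, 4 of the 10 lay above every tricarboxylic acid cycle gene. The gap between the median of the 10 genes and that of the mitochondrial genes was 0.27 on the log2 scale. It was 0.27 with upper-quartile scaling or equal sums, 0.26 under quantile normalization, and 0.17 once the trend of ratio on gene length was removed. These are descriptions of group means, and the difference between the lists was not tested. The 13 other genes annotated to amino acid catabolism, a term picked after the values were seen, had a median of -0.00055, with 7 below 0 and 0 called.

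**Figure D4:**
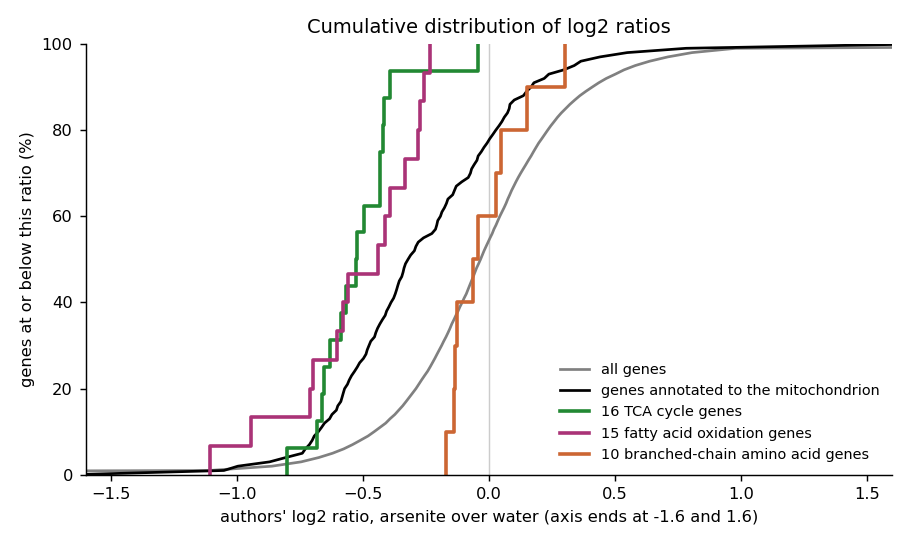
Share of genes (vertical axis, percent) at or below each authors' log2 ratio of arsenite over water (horizontal axis) for all 13490 genes, the 445 annotated to the mitochondrion, 16 tricarboxylic acid (TCA) cycle genes, 15 fatty acid oxidation genes and the 10 branched-chain amino acid genes. The curve of the 10 genes follows that of all genes around 0, and the curves of both comparison lists lie to its left, with medians of -0.53 and -0.44.

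Markers of cell types in this depot were read beside these values. Of 7 brown and beige adipocyte markers 7 had log2 ratios below 0, and their summed authors' mean was 57520 under water and 23105 under arsenite. General adipocyte markers lay above 0 in 6 of 7 cases, the exception being Fabp4 (above 0 with upper-quartile scaling, equal sums or the length trend removed), with sums of 295570 and 307637. Skeletal muscle markers, from tissue that can adhere to this depot, lay below 0 in 7 of 8 cases, the exception being Mb (5 of 8 under quantile normalization, 6 with equal sums), with sums of 210237 and 162131. All 5 endothelial markers lay above 0, with sums of 2016 and 3616, and the 5 preadipocyte markers (8316 and 8475) and 4 measured macrophage markers (1559 and 1439) were split as deposited, although with equal sums all 5 preadipocyte and 3 of the 4 macrophage markers lay above 0. None of these markers was called or listed at 0 in either group, and the part of any of these cells in the values of the branched-chain genes was not tested. In tissue RNA, fewer cells of a type and less RNA per cell cannot be told apart.

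The sign of several of the 10 ratios depended on how the group means were scaled. Ivd, Bcat2, Mccc2 and Auh had ratios above 0 and Hibch below 0 under every scaling run. Bckdha, Bckdhb, Dbt, Mccc1 and Hibadh changed side under 1 or more of them. The number below 0 was 6 as deposited, 5 with upper-quartile scaling, 2 under quantile normalization and 1 with equal sums. With equal sums the median of all genes itself moved up by 0.16. The share of all genes below 0 was 54.5% as deposited and 46.5% with upper-quartile scaling. It was 50.1% under quantile normalization and 33.8% with equal sums.

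**Figure D5:**
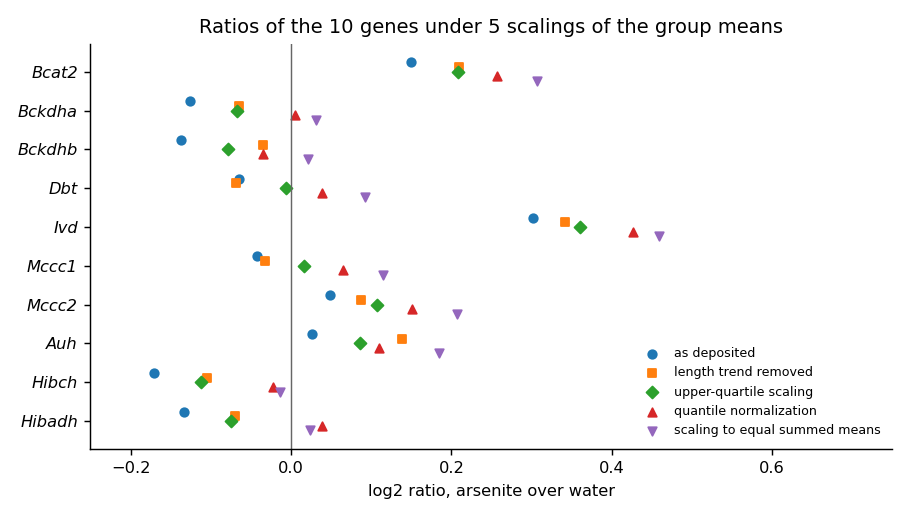
Log2 ratio of arsenite over water (horizontal axis) of the 10 genes as deposited and under 4 other treatments of the group means, 1 symbol for each; the vertical line marks 0. Hibch stays between -0.17 and -0.013, Ivd between 0.30 and 0.46, and Bckdha crosses 0, from -0.13 to 0.032.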

How the data were processed

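RNA was taken from snap-frozen inguinal fat of 6 mice and, per the labels' protocols, reads were aligned to GRCm38 with 20000000 mapped reads per sample; the depth of each library is otherwise unknown. Bowtie2, HISAT and RSEM are named, without roles, per the submitters' processing notes. The authors deposited for each gene a signal per group, a mean on a count-like scale whose scaling between libraries is not given in the sources used here. The control column was taken as water and the treatment column as arsenite. Each gene also has a log2 ratio deposited by the authors, which equals the log2 ratio of the means after 0.574 is added to each, to within 3.62e-08. The authors further deposited PPEE, a score from 0 to 1 whose name is that of the EBSeq posterior probability of equal expression; it is not a p-value.

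The planned tests over mice need values per mouse, which were not analysed here, so calls rest on PPEE over the whole table. Percent differences and levels per kilobase were computed from the means and the deposited gene length. The members, the lists and the naming rule (all 10 genes, and any measured gene of the fixed pathway and sister complex lists) were chosen with earlier results of these data known; Suclg2, Echs1 (as a fatty acid oxidation gene), Fabp4, Mb, B3gnt8, 0610005C13Rik and Bbof1 were named after their values or annotation were seen. Bdh1 and Adgre1 were not analysed here, and a few other list genes are not reported here. Gene identifiers matched RefSeq (GRCm38.p6) for 13463 genes, and promoter sequences are from RefSeq. Overlaps came from GENCODE M21 exons. Alternatives were upper-quartile scaling, quantile normalization, equal sums, removal of the length trend (lowess, span 0.3), a constant of 0.1 in the ratio, means of at least 50, and PPEE bounds of 0.01 and 0.1. The scalings and the length fit were tested on simulated data with a single planted factor for all genes and a planted length trend. Such data cannot show which scaling suits the real groups. Computation used statsmodels 0.14.6, pandas 2.3.3 and numpy 2.4.6 under Python 3.11.15, with figures from matplotlib 3.10.9.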

Additional observations from a re-analysis of the deposited data

How the results depend on the processing

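With no spread between mice, a log2 value that moved by 0.1 or more was counted as moved. The number of the 10 genes below 0, 6 as deposited, was 2 under quantile normalization and 1 with equal sums, and their median of -0.054 became 0.052 and 0.10. Under upper-quartile scaling the count was 5 and the median 0.0051; after removal of the length trend they were 6 and -0.033, and the added constant of 0.1 and the minimum mean of 50 left the count at 6. The number of the 10 genes called was 0 at PPEE bounds of 0.01, 0.05 and 0.1. Among single-gene ratios and list medians, equal sums moved 27 upward, quantile normalization moved 17, the length trend 3 and the minimum mean 1. No paired analysis was possible because the groups share no replicate number and only group means were used; leaving out replicates was not run for the same reason. The means carry no error, so no difference of a few percent can be set against the spread between mice.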
